A study of Mus musculus with 16 samples.

Results

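Delta cells are the somatostatin-secreting endocrine cells of the pancreatic islet. The cells described here were taken by their annotation: they are the columns of a deposited single-cell count matrix whose names matched a row labelled delta cell in the sample annotation deposited with it. The rule found 59 delta cells among 1081 annotated cells of 6 human donors without diabetes, all from wells marked as of good quality. The same matrix held 437 alpha cells, 164 beta cells, 74 gamma cells, 135 ductal cells, 111 acinar cells, 23 cells labelled PSC, 25 cells labelled as co-expressing hormones, 29 unclassified endocrine cells and 24 cells of rarer or no class. The series itself concerns the purinergic receptor gene P2ry1 in BetaTC6, a mouse insulinoma-derived beta-cell line, and its authors re-quantified human single-cell reads published by others. Donors are numbered 1 to 6 here by falling number of delta cells, and nothing else about a donor is given.

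Somatostatin acts within the islet as a paracrine brake: it binds Gi-coupled receptors on neighbouring alpha and beta cells and lowers glucagon and insulin release. Delta cells arise from the same endocrine progenitors as alpha and beta cells, and the homeodomain factor HHEX is needed to keep their identity in mice. They read nutrients, ghrelin, urocortin 3 and neural signals through surface receptors, which makes the receptor genes of particular interest.

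Donors 1 to 6 gave 21, 12, 10, 7, 7 and 2 delta cells. Delta cells made up 10.8%, 6.94%, 15.4%, 3.95%, 12.96% and 2.63% of the cells annotated as alpha, beta, delta, gamma or epsilon in these donors, and 7.98% over all 739 of them (95% Wilson interval 6.24 to 10.2%); unclassified endocrine and co-expressing cells are left out of this base. Shares of captured cells need not equal shares in the islet, and the interval covers counting error over pooled cells only, while the shares of single donors spread well beyond it. The labels came from the source study and rest on the same RNA, so the tests below measure how alike a difference was over donors and not whether a label was right.

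A delta cell held 19633 to 2255170 counts with a median of 488731, against medians of 462289 in alpha, 547765 in beta and 461540 in gamma cells. Cells were summed per donor and type, and a sum needed at least 3 cells, so donor 6 with its 2 delta cells gave no delta sum. The 5 delta sums held 1271517 to 21394799 counts. A count of 0, taken as fewer than 3 counts, allowed up to 0.138 to 3.28 CPM (counts per 1e6 counts of the library) in them, and donor 3 had the smallest sum. These floors cover counting error only, since reads without molecular identifiers are not independent molecules. Where a whole type was at 0, folds are lower bounds taken at the mean of these per-library floors. Values in CPM were scaled with TMM factors, which adjust for a few genes taking much of a library, so that they need not match a raw share of counts. In sums of cells, fewer cells with a transcript and less of it in each cell cannot be told apart.

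Since the labels rest on the same RNA, the markers in single cells describe the labelled cells and are no test of the label. SST, the somatostatin gene, was the leading hormone gene in 59 of 59 delta cells and took 4.55% to 47.5% of the counts of a cell, with a median of 25.1%. The median share was 25.5% in donor 1, 18.9% in donor 2, 37.7% in donor 3, 33.9% in donor 4, 17.5% in donor 5 and 7.48% over the 2 cells of donor 6. Donor 3, with the highest share, also had the shallowest cells, with a median of 86030 counts against 265575 to 886739 in the other donors, and the part of depth in its share was not tested. Over the 49 delta cells with at least 100000 counts the median SST share was 23.3%.

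Insulin (INS), glucagon (GCG), pancreatic polypeptide (PPY) and ghrelin (GHRL) together made up a median of 0.201% of the hormone counts of a delta cell. They passed 1% in 8 cells and 10% in 2 cells. In 1 cell of donor 4, INS took 8.53% of all counts beside 19.6% for SST. In 1 cell of donor 5, PPY took 3.55% beside 11.0% for SST. With both hormones well above the medians of 0.0109% for INS and 0.00119% for PPY over all delta cells, these 2 cells stand apart, and differences that moved most without them are given both ways below. No doublet caller was run, because the annotation already holds a separate class of co-expressing cells.

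**Figure D1:**
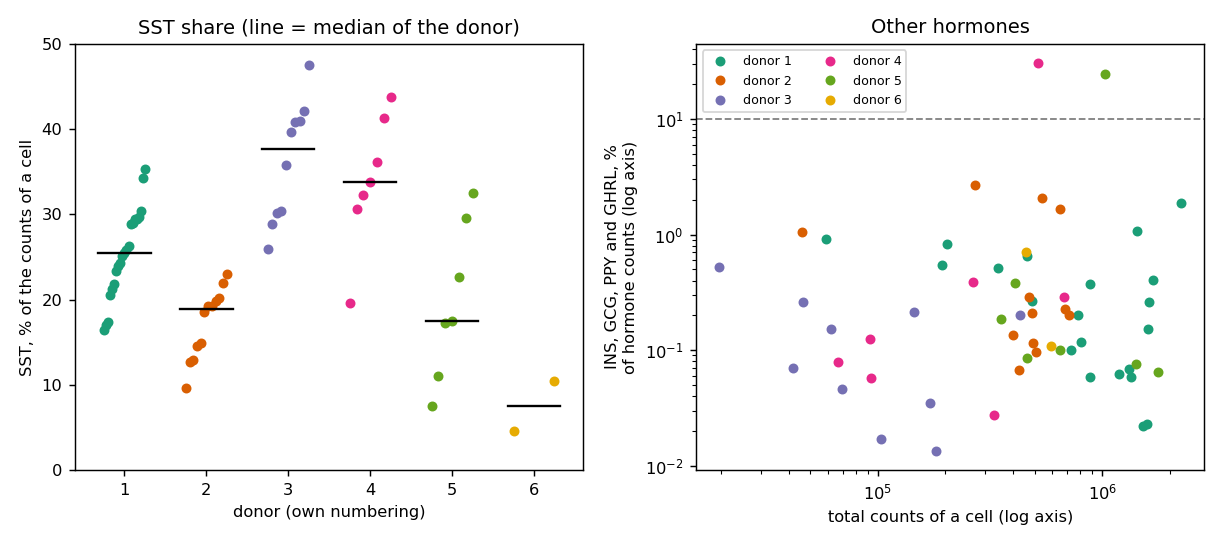
Left, the share of counts on SST in each of the 59 delta cells, by donor, with the median of each donor as a line; cells are ordered by value within a donor. Right, the share of INS, GCG, PPY and GHRL among hormone counts against the total counts of the same cells on log axes, where the 2 cells above the dashed line at 10% are the INS cell of donor 4 and the PPY cell of donor 5.

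The remaining markers separated delta cells from other endocrine cells to different degrees. In donors 1 to 5, SST stood at 258611, 167038, 510621, 389051 and 174669 CPM in delta sums. Alpha sums held 14.6 to 911 CPM, beta sums 13.4 to 804 and gamma sums 2.89 to 45.2, so no other endocrine sum came near. HHEX stood at 130.4, 247, 124, 109.8 and 182 CPM in the 5 delta sums. It reached at most 1.78 CPM in alpha, 1.36 in beta and 0.542 in gamma sums, and the fold of the means was 433 against alpha cells. The lowest delta donor thus lay far above the highest donor of the other endocrine types.

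LEPR, the leptin receptor, stood at 239.6, 501, 341, 214 and 272 CPM in donors 1 to 5. The highest value elsewhere among endocrine sums was 14.7 CPM, in a beta sum, so the groups did not overlap. LEPR was 71.5-fold, 52.3-fold and 188-fold higher in the mean of delta sums than in alpha, beta and gamma sums (adjusted p = 0.00541, 0.0167 and 0.0225). The call against beta cells was lost without donor 3 and that against gamma cells without donor 1, 2 or 6 (largest adjusted p 0.0954 and 0.0853). RBP4, which encodes the plasma carrier of retinol, behaved differently. Its delta values were 6788, 4836, 21433, 15720.0 and 6289 CPM, but beta sums already held 755 at the lowest, 2825 at the median and 13356 at the highest. The groups overlapped, and the difference from beta cells, 1.70 ± 0.85 on the log2 scale (± SE here and below), did not pass the test (adjusted p = 0.395). Against alpha and gamma cells RBP4 rose 732-fold and 1787-fold.

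Shares of cells with a count gave the same picture at equal depth. After each cell was thinned to 50000 counts, which left out 4 delta cells, HHEX was seen in 47 of 55 delta cells (85.5%) and in 0.966% of alpha, 1.27% of beta and 2.82% of gamma cells. LEPR was seen in 90.9% of delta cells and in 7.04% to 8.94% of the other endocrine cells. SST itself was seen in 55 of 55 delta cells but also in 51.2% of alpha, 53.2% of beta and 20.6% of acinar cells, so a single SST count did not separate delta cells from others in these libraries.

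**Figure D2:**
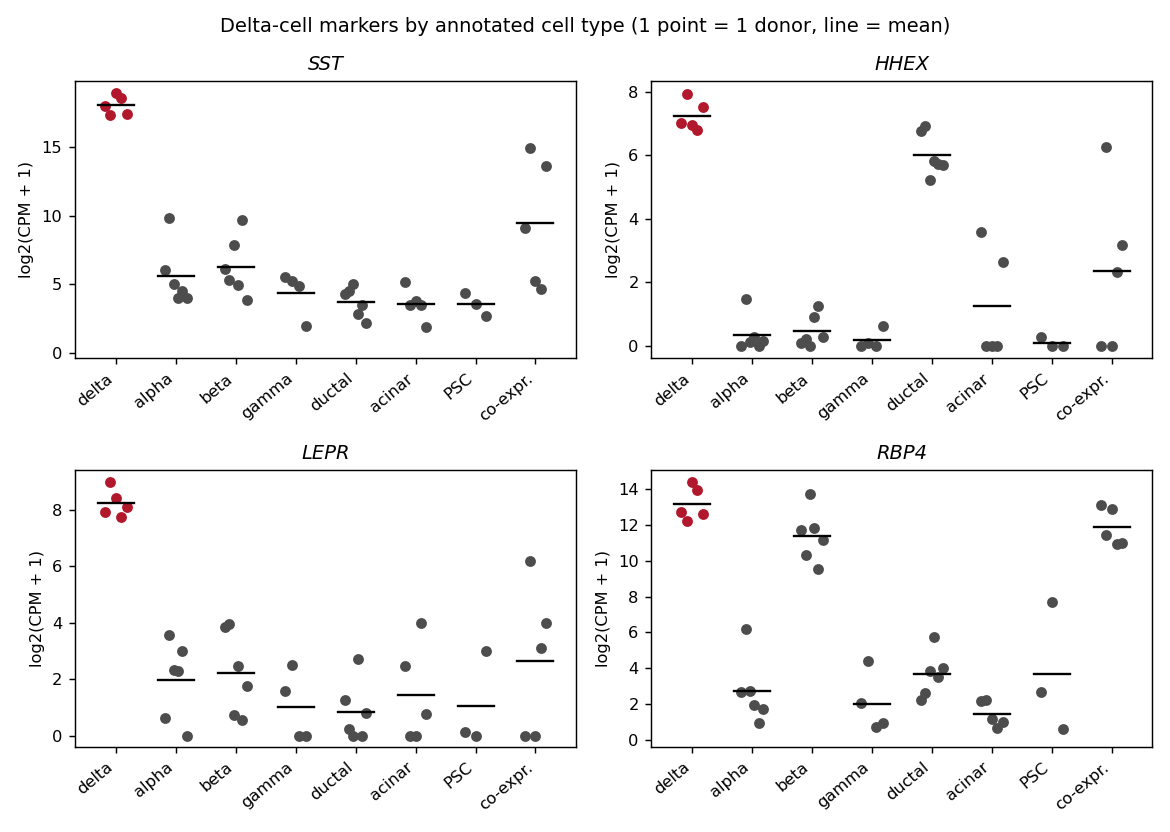
Levels of SST, HHEX, LEPR and RBP4 as log2(CPM + 1) in each donor's sum (points) and the mean over donors (lines) for 8 annotated cell types. Delta sums (red) lie above all alpha, beta and gamma sums for SST, HHEX and LEPR, while RBP4 overlaps with beta cells and HHEX is also present in ductal cells.

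Delta cells were first compared with the mean of alpha, beta and gamma cells in 1 fit with donor as a block, the question being what sets them apart within the endocrine family. Alpha and beta sums came from all 6 donors and gamma sums from 4; 5 donors had delta with alpha and beta sums and 3 had delta with gamma sums, so donor 6 entered without a delta sum. Of 18881 genes tested, 334 passed an adjusted p of 0.05 (1.77%), 250 higher in delta cells (1.32%) and 84 lower (0.445%). The count was 149 without donor 1 and 173 without donor 6. The median difference over all genes was -0.13 on the log2 scale, and -0.04 with relative log expression factors in place of TMM. DESeq2 called 1049 genes with 432 higher and 617 lower, and limma on mean CPM per cell called 220 higher and 334 lower, so neither tool shared the excess of higher over lower genes.

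Among the 30 higher genes that also exceeded each of alpha, beta and gamma in every donor and were well expressed, the 12 with the largest fitted difference were SST, FRZB, RTP4, HHEX, ABI3BP, BCHE, RBP4, SLC38A1, LEPR, MET, HAP1 and NUPR1. FRZB encodes a secreted antagonist of Wnt ligands. It stood at 103, 145, 9.84, 145 and 169 CPM in delta sums and at no more than 11.8 CPM in any alpha, beta or gamma sum, a difference of 10.58 ± 1.06 (adjusted p = 3.08e-08). Donor 3 was far below the other delta donors, within the range of gamma sums, so delta and gamma sums overlapped for FRZB; alpha and beta sums reached 1.23 CPM at most. BCHE, butyrylcholinesterase, which cleaves choline esters, stood at 81, 244, 120.3, 45.2 and 159.7 CPM against at most 16.5 CPM in the other endocrine sums (8.06 ± 1.21, adjusted p = 0.000104). All 5 delta donors lay above every other endocrine sum for BCHE, although the difference from beta cells alone did not pass (adjusted p = 0.0853).

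SLC38A1, a sodium-coupled transporter of glutamine and other neutral amino acids, stood at 159, 162, 66.7, 103 and 86.3 CPM in delta sums and at most at 8.33 CPM in the other endocrine sums (7.59 ± 0.96, adjusted p = 3.35e-06). ABI3BP, an extracellular matrix protein, stood at 39.6, 43, 30.6, 57.3 and 30.2 CPM against at most 5.57 CPM (8.13 ± 1.18, adjusted p = 3.22e-05). RTP4, a chaperone of G protein-coupled receptors, stood at 19.4, 14.5, 19.7, 44.6 and 28.3 CPM, and gamma sums held 0 counts of it, so that delta cells were at least 65-fold higher than gamma cells (adjusted p = 0.00129, and 0.474 with the compared types alone in the fit). For each of these 3 genes the 5 delta values lay above every other endocrine sum. Ductal sums also held them, SLC38A1 at 52.8 to 148, ABI3BP at 0 to 86 and RTP4 at 25.4 to 62.4 CPM: against ductal cells, where 2639 of all genes were called (14%), the differences were 0.54 ± 0.99, 2.14 ± 1.44 and -0.41 ± 1.03 and did not pass (adjusted p = 0.802, 0.373 and 0.866). HHEX was likewise present in ductal sums, at 36.5 to 121 CPM (1.29 ± 1.08, adjusted p = 0.502).

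The last 3 were less even. MET, the receptor of hepatocyte growth factor, stood at 5.32, 30.01, 1.09, 0.603 and 0.133 CPM, so that donor 2 was far above the rest and donor 5 within the range of other endocrine sums (adjusted p = 0.00034). NUPR1, a stress-inducible nuclear protein, stood at 37.1, 12, 186, 58.5 and 17.4 CPM against at most 11.1 CPM elsewhere among endocrine sums (adjusted p = 5.7e-06). HAP1, which binds huntingtin and works in vesicle transport, stood at 62.5, 13.7, 99.5, 80.8 and 13.1 CPM, overlapped with alpha sums of up to 17.4 CPM, and had an adjusted p of 0.0162 that lost the threshold without donor 1, 4 or 5 or without the 2 mixed cells (largest 0.112).

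Of the 25 genes lower in delta cells by the same filters, the 8 with the largest fitted difference were ADCY1, KLHL41, COTL1, SLC4A10, NHSL1, SMAD9, GNG4 and G6PC2. ADCY1, a calcium-stimulated adenylyl cyclase, had 1 count over all 5 delta sums, against 39.9 to 119 CPM in alpha and 5.59 to 42.3 CPM in beta sums (adjusted p = 0.000585). COTL1, an actin-binding protein, stood at 0, 0.506, 2.19, 3.62 and 0 CPM in delta sums against 122 to 431, 8.25 to 119 and 11.2 to 68.3 CPM in alpha, beta and gamma sums (-7.03 ± 1.08, adjusted p = 7.39e-05). No delta donor reached the lowest value of another endocrine type for either gene.

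G6PC2, the islet glucose-6-phosphatase, stood at 15.6, 21.6, 5.47, 77.8 and 0.133 CPM in delta sums, against 316 to 878 CPM in alpha, 678 to 3969 in beta and 143 to 769 in gamma sums. Its fall was 21-fold against alpha, 71.7-fold against beta and 16.3-fold against gamma cells by the means (adjusted p = 0.000224 against their mean). The call against gamma cells alone (adjusted p = 0.0129) was lost without donor 1 or 2. GNG4, a G protein gamma subunit, stood at 0.462, 3.03, 1.09, 22.3 and 0.133 CPM against at least 66.2 CPM in every other endocrine sum (adjusted p = 0.00296). SLC4A10, a sodium-dependent bicarbonate transporter, stood at 0, 0.337, 0, 5.43 and 0 CPM and SMAD9, a mediator of bone morphogenetic protein signals, at 0.139, 0, 2.19, 2.41 and 0 CPM. For G6PC2, GNG4 and SLC4A10 donor 4 was the highest delta donor. KLHL41 lost the call without donor 2, SLC4A10 without donor 1 or 2 and SMAD9 without donor 1 (largest adjusted p 0.0532, 0.0636 and 0.0661).

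**Figure D3:**
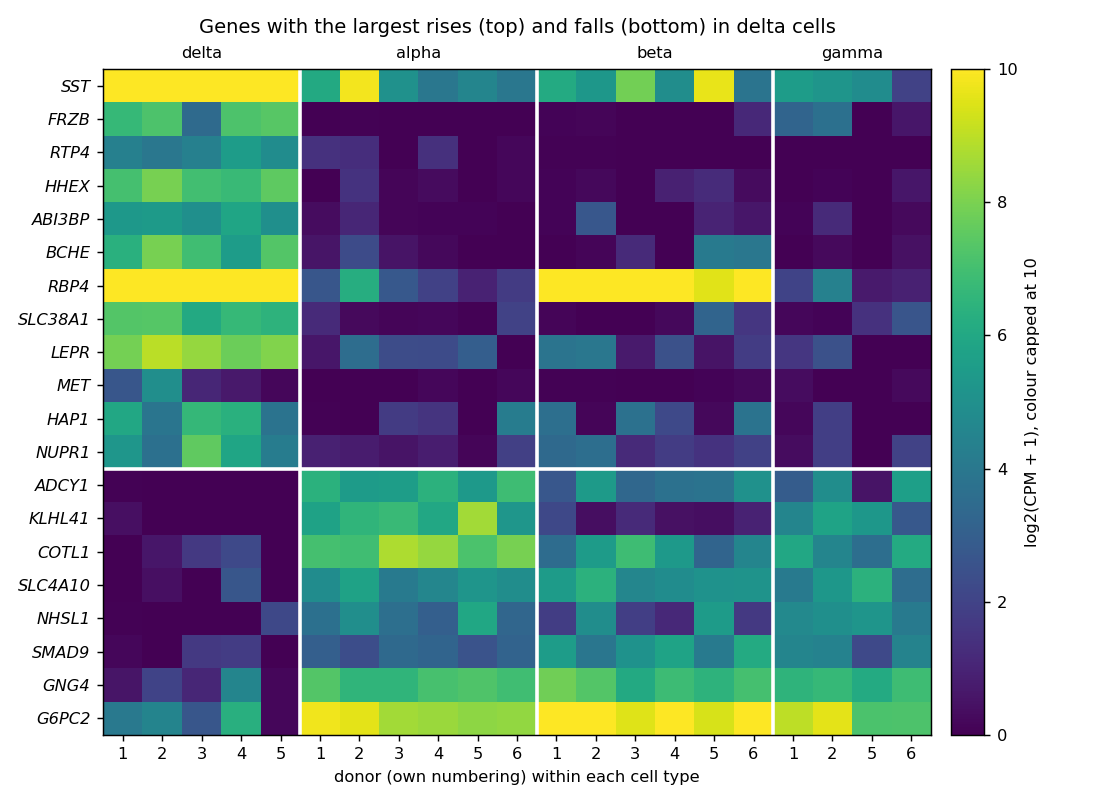
Levels as log2(CPM + 1) of the 12 genes with the largest rises and the 8 with the largest falls, by donor, in delta, alpha, beta and gamma sums; colours stop at 10. The upper block is highest in delta columns, with RBP4 also high in beta columns and FRZB seen in gamma columns, and the lower block is lowest in delta columns, with KLHL41 also low in beta columns and donor 4 the highest delta donor for GNG4 and G6PC2.

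Counts of the insulin-positive cell of donor 4 were then set beside those of the whole sum. That cell gave 516947 of the 2040409 counts of the donor's delta sum. It held 62 of the sum's 62 counts of FFAR1, 37 of 37 of GNG4, 32 of 32 of the beta-cell factor MAFA, 9 of 9 of SLC4A10, 127 of 129 of G6PC2 and 139 of 141 of IAPP, the amylin gene. It held 43 of 182 counts of HHEX and 27 of 355 of LEPR, so both delta markers were present in it. These genes were examined after their values had been seen. The PPY cell of donor 5 held 6 of 6 counts of CHRM3, with 0 of 1373 counts of HHEX and 94 of 2050 of LEPR. Without the 2 cells the difference of G6PC2 went from -5.07 to -6.75 and that of GNG4 from -5.09 to -7.10. In the same way SLC4A10 went from -6.19 to -9.05, NHSL1 from -5.47 to -9.20, COTL1 from -7.03 to -8.10 and HAP1 from 5.14 to 4.43. Fitted values of genes with few or no counts left depend on the model's prior count, so these shifts are no measure of size.

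**Figure D4:**
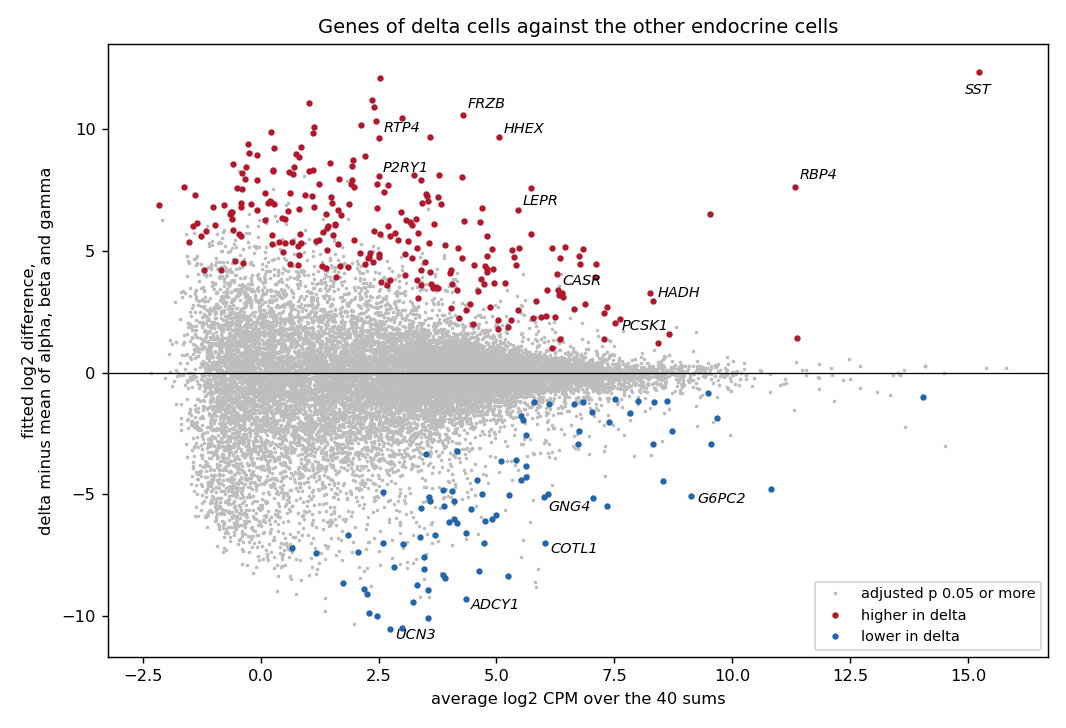
Fitted log2 difference between delta cells and the mean of alpha, beta and gamma cells against average log2 CPM, for 18881 genes. The 250 genes called higher are red and the 84 called lower are blue; fitted values of genes at 0 in a whole group depend on the model's prior count and are no measure of size.

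Receptor genes of the islet included several that were called in delta cells. The list held 39 symbols, 1 of them an older name of FFAR4, and was made up of receptors known from delta cells, so its direction is not independent evidence. Of 33 members tested, 12 were higher in delta cells and 2 lower, where 1.32% and 0.445% of all genes were, with a median difference of 0.90 against -0.13 over all genes. Among the 12 were GHSR, GLP1R, GCGR, CRHR2, ADRA2A, DRD2, FFAR4, CASR, LEPR and ERBB4. GHSR, FFAR4, CASR, LEPR and ERBB4 kept the call under every alternative in which they could be fitted, and the other 7 lost it under at least 1.

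GHSR, the ghrelin receptor, stood at 14.1, 9.1, 35, 63.9 and 18.5 CPM in the 5 delta sums. Alpha and gamma sums held 0 counts, which made delta cells at least 193-fold and 72.2-fold higher, and beta sums held up to 3.14 CPM (adjusted p = 4.88e-05 against the mean of the 3 types and 0.105 against beta cells, which did not pass). The call against gamma cells (adjusted p = 0.0167) was lost without donor 1, 2, 4 or 6 or with the compared types alone in the fit. At 50000 counts GHSR was seen in 17 of 55 delta cells, 3 of 158 beta cells and 0 of 414 alpha cells, which allows up to 0.725% of cells with a count at this depth, by counting error alone over cells pooled from all donors; it does not limit the share of cells that express the gene. Every delta donor was above every other endocrine sum.

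DRD2, the dopamine D2 receptor, stood at 7.44, 0, 27.3, 57.3 and 2.79 CPM in delta sums and had 0 counts in alpha, beta and gamma sums. Delta cells were at least 129.9-fold higher than alpha and at least 36.6-fold higher than beta cells, and 11 of 55 thinned delta cells held a count. The call against alpha cells (adjusted p = 0.0387) was lost without donor 1, 3, 4, 5 or 6 or with DESeq2. Donor 2 had none, and the adjusted p of 0.0221 was up to 0.303 over the alternatives, the call being lost without donor 1, 4 or 5 or with DESeq2. Against beta cells alone DRD2 did not pass (adjusted p = 0.085). CRHR2, the receptor of urocortin 3, stood at 14, 0, 33.9, 45.8 and 0 CPM, and the highest value in another endocrine sum was 0.653 CPM (adjusted p = 0.000151, and 0.119 with DESeq2). Delta donors thus fell into 3 with CRHR2 and 2 without. The ligand gene UCN3, named after its values were seen, had 0 counts in delta sums but 8.7 to 28.9 CPM in alpha, 2.73 to 22.5 in beta and 10.03 to 24.7 in gamma sums, at least 13.1-fold, 7.06-fold and 12.2-fold above delta cells (adjusted p = 0.00134).

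Several receptors were seen in both delta and beta sums; beta cells were not tested against alpha or gamma cells. FFAR4, a receptor of long-chain fatty acids, stood at 58.7, 99.1, 129, 187 and 17.8 CPM in delta sums and at 19.96 to 103 in beta sums. In alpha and gamma sums it reached at most 0.586 CPM. The difference from beta cells was 0.69 ± 0.85 (adjusted p = 0.828) and that from alpha cells 8.97 ± 1.10 (adjusted p = 2.25e-06).

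CASR, the extracellular calcium-sensing receptor, stood at 318, 301, 104, 138 and 164 CPM in delta and 98.6 to 306 in beta sums, with 0.056 to 8.21 in alpha and 15.4 to 115 in gamma sums. It passed the test against alpha cells (7.85 ± 0.99) but not against beta (0.25 ± 0.75) or gamma cells (2.06 ± 0.90). GCGR, the glucagon receptor, stood at 13.3, 4.22, 4.37, 8.45 and 15.5 CPM in delta sums, and GLP1R, the receptor of glucagon-like peptide 1, at 1.2, 0, 21.9, 13.3 and 17.7 CPM. Beta sums held 5.93 to 61.1 and 2.27 to 47 CPM, overlapping with delta sums, and the differences did not pass the test (adjusted p = 0.654 and 0.836). The GLP1R call against the mean of the 3 types was lost without donor 3, 4, 5 or 6 or with limma (largest adjusted p 0.398).

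ERBB4, a receptor of neuregulins, stood at 19.2, 19.2, 28.4, 40.4 and 9.17 CPM in delta sums, at up to 4.15 CPM in alpha sums and no higher than 1.08 in beta or gamma sums (adjusted p = 0.000536). ADRA2A, the alpha-2A adrenergic receptor, stood at 0, 0.674, 2.19, 13.3 and 21.3 CPM and did not pass against beta cells (0.27 ± 1.05, adjusted p = 0.974). Its call against the 3-type mean was lost without donor 2, 5 or 6, with limma or with the compared types alone in the fit (largest adjusted p 0.564).

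The 2 lower receptors were FFAR1 and GPR119, both Gs- or Gq-coupled lipid receptors of islet cells. GPR119 had 0 counts in delta sums and 15 to 111 CPM in alpha sums, at least 44.3-fold more (adjusted p = 0.00195). Its call against the 3-type mean (adjusted p = 0.0187) was lost without donor 1, 4 or 6 or with sums of at least 1 cell. FFAR1 stood at 0.185, 0, 0, 37.4 and 0.133 CPM in delta sums against 19.7 to 91.1 in alpha and 74 to 239 in beta sums (adjusted p = 0.0256, lost without donor 1, 2, 5 or 6 or without the donor block). All FFAR1 counts of donor 4 lay in the insulin-positive cell, and without the 2 mixed cells the difference from the mean of the 3 types went from -5.00 to -9.72 (adjusted p = 2.61e-06). The somatostatin receptor genes SSTR1, SSTR2, SSTR3 and SSTR5 did not pass the test in any of the 4 endocrine comparisons: SSTR2 stood at 161, 101, 137, 56.7 and 268 CPM in delta sums and SSTR1 at 58, 194, 77.6, 85.1 and 36, and SSTR5 had 0 counts.

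P2RY1, the human counterpart of the receptor gene studied in the mouse line, encodes a Gq-coupled receptor of ADP. It stood at 20.8, 97.6, 4.37, 72.4 and 55.8 CPM in delta sums and at 11 at the lowest, 32.7 at the median and 46.2 at the highest in beta sums. Alpha sums reached 0.116 CPM at most and gamma sums held 0 counts, and delta cells were higher than alpha cells and at least 129-fold higher than gamma cells (adjusted p = 1.22e-05 and 0.000876, the latter 0.0829 with the compared types alone in the fit). Delta and beta sums overlapped, and their difference of 0.66 ± 0.99 did not pass (adjusted p = 0.869).

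At 50000 counts P2RY1 was seen in 16 of 55 delta cells (29.1%), 45 of 158 beta cells (28.5%), 0 of 414 alpha cells and 0 of 71 gamma cells, which allows up to 0.725% and 4.23% of cells with a count, under the same limits. P2RY1 was the only 1 of 14 purinergic genes tested that passed against the mean of the 3 endocrine types, and none of the 14 passed against beta cells, where 327 of all genes did (1.73%). P2RX4, an ATP-gated channel, stood at 75.9, 21.2, 27.3, 51.9 and 0.266 CPM, and ENTPD3, an ectonucleotidase that breaks down ATP and ADP, at 15.2, 12, 27.3, 25.3 and 74 CPM. ENTPD3 beta sums were higher, at 53.1 to 161 CPM, without passing the test (adjusted p = 0.555).

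**Figure D5:**
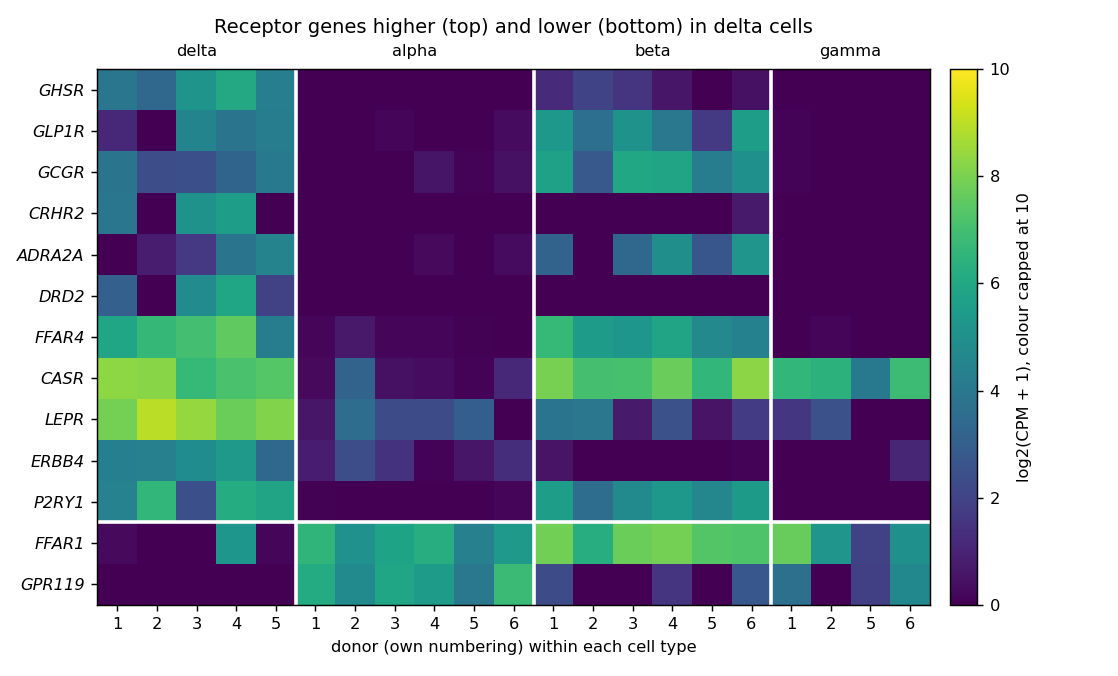
Levels as log2(CPM + 1) of the receptor genes named as higher or lower in delta cells, and of P2RY1, by donor in delta, alpha, beta and gamma sums; colours stop at 10. FFAR4, CASR, GLP1R, GCGR, ADRA2A and P2RY1 are seen in both delta and beta columns, GHSR, CRHR2, DRD2, LEPR and ERBB4 mainly in delta columns, and FFAR1 in 1 delta donor.

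Of 29 islet transcription factors tested, HHEX, PDX1, NKX6-3 and POU3F1 were higher in delta cells than in the mean of the 3 types and IRX2 was lower, where 1.32% and 0.445% of all genes were. The IRX2 call (adjusted p = 0.0275) was lost without donor 2, 3, 4 or 5 and that of POU3F1 (adjusted p = 0.000777) with DESeq2 (largest adjusted p 0.117 and 0.318). PDX1, a factor of pancreas and beta-cell development, stood at 36.6, 14.2, 175, 206 and 36.4 CPM in delta sums and 27.8 to 811 CPM in beta sums. Alpha sums reached 1.51 CPM, a 151-fold difference (adjusted p = 1.83e-06), while the difference from beta cells, -1.11 ± 0.75, did not pass. Its call against the mean of the 3 types was lost without donor 5, without the donor block or with limma (largest adjusted p 0.234). NKX6-3 stood at 22.1, 2.87, 41.5, 22.9 and 0.93 CPM and had 0 counts in gamma sums (adjusted p = 0.000582 against the mean of the 3 types). Against gamma cells alone its adjusted p was 0.0238, and that call was lost without donor 1, 2, 4 or 6, without the donor block or with the compared types alone in the fit.

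Factors known from the other types were lower in delta cells. IRX2, an alpha-cell factor, had 3 counts over the 5 delta sums against 46.9 to 164 CPM in alpha sums (adjusted p = 0.000503). MAFA stood at 0, 0, 2.19, 19.3 and 0 CPM against 13.4 to 211 in beta sums (-6.26 ± 1.08, adjusted p = 0.000761), and without the 2 mixed cells the difference was -9.30. MAFA lost the call without the donor block (adjusted p = 0.154).

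General endocrine factors did not pass the test against the mean of the 3 types. ISL1 stood at 259.7, 367, 207, 259 and 495 CPM in delta sums and at 92.7 to 215 in alpha, 86.8 to 142 in beta and 105 to 217 in gamma sums (adjusted p = 0.6). NEUROD1 stood at 277, 269.6, 254, 267 and 453 CPM, with a difference of -0.15 ± 0.69 (adjusted p = 1), and PAX6 at 133, 190.2, 118, 200.3 and 233 CPM (-1.29 ± 0.67, adjusted p = 0.455).

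Of 17 genes of prohormone processing and secretory granules, only PCSK1, the prohormone convertase 1/3, passed against the mean of the 3 other types, where 1.77% of all genes did. PCSK1 stood at 593, 466, 229.6, 396 and 169.9 CPM in delta sums, 178 to 634 in beta sums and 4.65 to 19 in alpha sums, so delta cells exceeded alpha cells 28.7-fold (adjusted p = 9.84e-06) and overlapped with beta cells, donor 5 lying just below the beta range. Against the mean of the 3 types the adjusted p was 0.0149, and the call was lost without donor 1, 2 or 4, with sums of at least 1 cell or with limma (largest 0.129). PCSK2, the other convertase, stood at 618, 349, 495, 591 and 453 CPM (-0.64 ± 0.66, adjusted p = 0.829), and VGF, a granin-related granule protein, was lower than in alpha cells (-3.89 ± 1.05, adjusted p = 0.0334, lost without donor 1, 2, 3 or 4 or without the donor block).

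None of 16 genes of the exocytosis machinery passed against the mean of the 3 types in edgeR, where 334 of all 18881 genes did (1.77%), so a count of 0 is near that share. SYT13, an atypical synaptotagmin, was higher than in alpha cells (2.38 ± 0.56, adjusted p = 0.0114, lost without donor 1, without the donor block or with sums of at least 1 cell). Among 26 ion channel genes tested, only KCNH6, a voltage-gated potassium channel, passed against the mean of the 3 types: 4 delta donors had 0 counts and donor 5 3.59 CPM, against 34.3 to 138 CPM in alpha sums (adjusted p = 0.0187 against that mean, up to 0.093 without donor 1, 2, 4 or 6). Without the 2 mixed cells, 1 of which is in donor 5, its fitted difference went from -6.10 to -11.99 (adjusted p = 0.000511). Against beta cells alone KCNJ3, a G protein-gated potassium channel, was higher, at 8.04, 13.5, 2.19, 0.603 and 13.5 CPM against at most 0.643 in beta sums (6.18 ± 1.29, adjusted p = 0.00669). KCNK16, a K2P potassium channel of the islet, stood at 174, 37.4, 113, 175 and 66.1 CPM in delta sums against at most 1.61 in gamma sums (7.03 ± 1.31, adjusted p = 0.00283, lost without donor 1 or with the compared types alone in the fit, largest 0.0795). The subunits of the ATP-sensitive potassium channel, KCNJ11 at 14.2, 3.2, 21.9, 43.4 and 0 CPM and ABCC8 at 736, 248, 525, 817 and 574 CPM, did not pass in any endocrine comparison.

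Of the remaining gene lists, 0 of 22 circadian clock genes, 0 of 22 immediate-early genes, 0 of 19 genes of the unfolded protein response and 1 of 28 genes tied to type 2 diabetes, HHEX itself, passed against the mean of the 3 types. List medians of the log2 difference, beside -0.13 over all genes, were 0.15 for the transcription factors, -0.25 for prohormone processing, 0.04 for exocytosis, 0.04 for ion channels, -0.27 for glucose handling and 0.23 for purinergic genes. These counts stand against the 1.77% of all genes called.

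Of 17 genes of glucose entry and metabolism tested, LDHA, lactate dehydrogenase A, rose and G6PC2 fell against the mean of the 3 types, where 1.32% and 0.445% of all genes did. LDHA stood at 141, 208, 79.8, 319 and 52.1 CPM in delta sums against 0.464 to 17 CPM in beta sums, where it is known to be kept low (4.39 ± 0.75, adjusted p = 0.000748, and 0.0561 with the compared types alone in the fit), and 63.9 to 172 in alpha sums. Its call against the 3-type mean was lost without donor 2, 3, 4 or 6 or with limma (largest adjusted p 0.237). UCP2, a mitochondrial carrier, was also higher than in beta cells (4.15 ± 0.96, adjusted p = 0.0131, lost without donor 3 or 4 or without the donor block).

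SLC2A2, the glucose transporter GLUT2, had 0 counts in all 5 delta sums and up to 37.1 CPM in beta sums, at least 11.8-fold more (adjusted p = 0.0248), with donor 5 at 0 in both types; the call was lost without donor 1, 2, 3 or 4, without the co-expressing cells or with the compared types alone in the fit. SLC2A1, the transporter GLUT1, stood at 20.2, 14, 10.9, 37.4 and 0 CPM in delta and 16.9 to 73.9 in beta sums (adjusted p = 0.743). HADH, a mitochondrial enzyme of fatty acid oxidation that restrains insulin release, stood at 433, 734, 609, 700.4 and 867 CPM, within the beta range of 417 to 1067 and 41.2-fold above alpha cells (adjusted p = 1.92e-06).

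Compared with single types, the fewest genes were called against gamma cells, the comparison that also had the fewest donors, although limma on mean CPM per cell called fewer against beta cells (582) than against gamma cells (697). Against alpha cells 524 genes passed (2.78%), 206 higher (1.09%) and 318 lower (1.68%), over 5 donors with both types. Against beta cells 327 passed, 211 higher (1.12%) and 116 lower (0.614%), also over 5 donors. Against gamma cells 200 passed (1.06%), 101 higher (0.535%) and 99 lower (0.524%), over 3 donors with both. Without the donor block the counts were 336, 206 and 104, and when any 1 donor was left out they lay between 253 and 379, 152 and 284, and 53 and 145. The balance of higher and lower genes turned in some settings: against alpha cells 175 were higher and 161 lower without the donor block and 201 and 178 without donor 5, and against beta cells 70 were higher and 83 lower with the compared types alone in the fit. With limma the split was 255 and 745 against alpha, 298 and 284 against beta and 228 and 469 against gamma cells. Whether the counts differ between types was not tested.

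Against alpha cells the largest rises by fitted log2 difference were FRZB, SST and P2RY1, and the largest falls PRSS3, PTPRT and SPOCK3. Fitted values of genes with few or no counts in a whole group depend on the model's prior count, so this rank is no rank of size. PRSS3, a trypsinogen, PTPRT, a receptor tyrosine phosphatase, and SPOCK3, a matrix proteoglycan, each had 0 counts in delta sums, against 22.8 to 117, 11.9 to 83.5 and 8.4 to 105 CPM in alpha sums (adjusted p = 0.000954, 0.000616 and 0.000738). All 8 alpha markers fell, GCG to 739, 533, 159.6, 119 and 53.1 CPM from 72632 to 177836 and TTR, transthyretin, to 1659.7, 4467, 1206, 2693 and 2350.2 CPM from 32517 to 71543. TM4SF4, another alpha marker, stood at 439, 1148, 263, 106 and 829.6 CPM in delta sums, below alpha (-2.96 ± 0.71, adjusted p = 0.0127) and above beta sums (3.60 ± 0.70, adjusted p = 0.0028). The first call was lost without donor 1, 2, 3 or 4 and the second with the compared types alone in the fit (largest adjusted p 0.0765 and 0.0763). With relative log expression factors the median over all genes against alpha cells went from -0.31 to -0.14 on the log2 scale, and with the hormone genes and TTR left out it was -0.185.

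Against beta cells the largest rises by fitted log2 difference were FRZB, SST and SLITRK6, and the largest falls RPH3A, DLK1 and ADCY1. The 3 falls had few or no counts in delta sums, so their rank is no measure of size. SLITRK6, a neuronal transmembrane protein, stood at 49.8, 89.7, 17.5, 45.8 and 51.1 CPM in delta sums, at most at 0.103 CPM in beta sums and at 44.2 to 253 in gamma sums, so delta cells overlapped with gamma cells in this gene (-1.03 ± 1.03, adjusted p = 0.753). RPH3A, a Rab3 effector of exocytosis, had 0 counts in delta sums against 5.15 to 119 CPM in beta sums (adjusted p = 0.000199). DLK1, a Notch-related transmembrane protein, had 2 counts against 5.74 to 3206 CPM (adjusted p = 8.02e-06). Of 9 beta markers, INS, IAPP, MAFA, ADCYAP1, DLK1 and G6PC2 fell against beta cells, while PDX1, NKX6-1 and HADH did not pass.

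Against gamma cells the largest rises by fitted log2 difference were SST, P2RY1 and RTP4, and the largest falls included LAMP5 and NOSTRIN. With P2RY1 and RTP4 at 0 in gamma sums and LAMP5 and NOSTRIN at 0 in delta sums, this rank is no measure of size. LAMP5, a lysosome-associated membrane protein, and NOSTRIN, an adaptor of nitric oxide synthase, had 0 counts in delta sums, against 5.24 to 73.5 and 2.35 to 70.5 CPM in gamma sums (adjusted p = 0.00935 and 0.0347). Their calls were lost without donor 1, with DESeq2 or with the compared types alone in the fit for LAMP5 and without donor 1, 2, 3, 4, 5 or 6 or with the compared types alone in the fit for NOSTRIN. CHRM3, the muscarinic M3 receptor, was also lower, at 0, 0.169, 0, 0 and 0.797 CPM against 60.5 to 116 (-8.27 ± 1.99, adjusted p = 0.0328), and all its counts in donor 5 lay in the PPY cell. The call was lost without donor 1, 3, 4 or 6 or with the compared types alone in the fit (largest adjusted p 0.127), and without the 2 mixed cells the difference was -10.97.

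Set against exocrine cells (6 donors with ductal sums, 5 of them with delta sums, and 5 with acinar sums, 4 of them with delta sums), delta cells were higher in most genes of hormone secretion. Against ductal cells 1335 genes were higher (7.07%) and 1304 lower (6.91%), and against acinar cells 2636 passed (14%), 1447 higher (7.66%) and 1189 lower (6.3%). Of 17 genes of prohormone processing and granules, 14 were higher than in ductal and 15 higher than in acinar cells. Of 16 exocytosis genes 14 were higher in each comparison, among them SNAP25, STX1A and VAMP2, which form the core fusion complex. Of 26 ion channel genes 17 were higher in each, and of 29 islet transcription factors 15 and 18. Against the mean of all other types in the fit 1368 genes passed (7.25%), 1089 higher (5.77%) and 279 lower (1.48%). With limma this balance turned to 729 higher and 1030 lower, and against ductal cells it was 1284 and 2650, or 382 and 781 with the compared types alone in the fit.

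Markers of cells outside the endocrine family were looked up in the same sums. Summed over 8 acinar markers, delta sums held 0.980 to 17.7 CPM without TMM scaling, against 92731 to 188631 in acinar sums. The 7 ductal markers summed to 29.9 to 70.8, against 43.4 to 108 in alpha, 2.79 to 26.3 in beta, 32.4 to 233 in gamma and 5799 to 13921 in ductal sums. KRT19 alone among them passed, at 26.5, 10.5, 78.7, 25.9 and 39.2 CPM in delta sums against at most 33.4 CPM in other endocrine sums, with which it overlapped, and at least 744 in ductal sums (adjusted p = 0.00172). The 7 stellate markers summed to 356 to 1129 in delta, 304 to 969 in alpha and 36027 to 62394 in PSC sums. The 7 immune markers summed to 27.8 to 79.2 in delta, 27.2 to 202.9 in alpha, 5.88 to 46.2 in beta, 20.7 to 31.5 in gamma and 657 to 3822 in ductal sums, with PTPRC, HLA-DRA, LAPTM5 and TYROBP at 0 in delta sums. Of the 4 that could be tested, CD74 was higher than in beta cells (2.33 ± 0.62, adjusted p = 0.0429) and CD68 higher than in gamma cells (6.05 ± 1.59, adjusted p = 0.0492). The CD74 call was lost without donor 2, 3, 4 or 6, without the donor block, with sums of at least 1 cell, without the 2 mixed cells or with the compared types alone in the fit and that of CD68 without donor 1, 2, 3, 4, 5 or 6, without the donor block, with limma, without the co-expressing cells or with the compared types alone in the fit, and neither passed against the mean of the 3 types.

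A difference in the number of genes seen per cell was not detectable. At 50000 counts the mean over donors was 4109 genes in delta and 4516 in alpha cells, a difference of -407 ± 460 (SD, 5 donors) with delta cells higher in 2 donors (exact sign-flip permutation test, two-sided, p = 0.25, adjusted p = 0.375 over 3 comparisons). Against beta cells the difference was 140 ± 375 (SD, 5 donors, higher in 3, exact p = 0.4375). Against gamma cells it was 148 ± 146 (SD, 3 donors, higher in 3, exact p = 0.25). With 5 donors this exact test cannot go below p = 0.0625 and with 3 not below 0.25.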

How the data were processed

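Values are expected counts per gene and cell that the authors deposited as 1 matrix of 57980 genes by 1081 cells; per the series' design text they were made with RSEM 1.3.3 on the human build GRCh38.p12, and all values were whole numbers. The authors' deposited annotation gave labels, donors, disease group and well quality, and 1097 good cells without diabetes are listed in it. A second matrix named for diabetic donors was identical to the first, so no disease comparison was made. Counts were summed per donor and type (at least 3 cells, types with at least 3 donors: 8 types, 40 sums). Genes passing filterByExpr (count 10, total 15) were tested in 1 fit with edgeR 4.0.16 in R 4.3.3: TMM, quasi-likelihood F test, donor block plus type, two-sided, Benjamini-Hochberg over all 18881 genes, threshold 0.05. SEs came from the F statistic. Donors are the replicates, and the donor block pairs the sums. Residuals of delta sums correlated with those of the same donor's alpha and beta sums at 0.109 to 0.270. Pairs of different donors were not computed, so these values do not show a donor effect. In sums simulated for the comparison with the endocrine mean, over 18481 genes, 32, 37, 44 and 44 of 50 genes changed 16-, 64-, 256- and 1024-fold were called, and 6 of all 163 calls were of unchanged genes. All simulated sums shared 1 mean profile, without donor effects or differences between the other types. Changed genes were drawn only from those above a minimum expected count. These rates need not hold for the real sums.

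Named genes were the 4 markers; the 12 largest rises and 8 largest falls (3 each for single types) past the threshold, with a mean level of 3 or more on the log2 CPM scale and in the same direction in every donor with both types; list members that passed or bear on somatostatin secretion; P2RY1; and the hormones. Members and lists were chosen with earlier results on the mouse libraries of this series known, and UCN3 after its values were seen. A fold compares means of donors; against a group at 0 it is a lower bound taken at 3 counts in each library, averaged over that group. A few genes that the rule takes are not reported here. Alternatives are given in the closing section.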

Additional observations from a re-analysis of the deposited data

Results flagged for a closer look

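Several low or uneven delta-cell genes had 1 donor far from the other 4 by Dixon's criterion, which was met in 8 of 24 groups examined. Its nominal chance rate of about 1 of 20 groups does not hold for genes near 0. A gene at 0 in all donors but 1 meets the criterion whatever its count, so 8 of 24 cannot be read against that rate. MET had its highest value, 30.0 CPM, in donor 2, against 5.32 CPM in the next donor. NUPR1 reached 186 CPM in donor 3, the donor with the smallest sum, against 58.5 CPM in the next. Donor 4 gave the highest value of SLC4A10 (5.43 CPM), GNG4 (22.3 CPM) and G6PC2 (77.8 CPM), nearly all of it from the insulin-positive cell described above. ADCY1 (0.0462 CPM) and KLHL41 (0.324 CPM) were above 0 in donor 1 alone, and NHSL1 reached 3.45 CPM in donor 5.

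Cells outside the annotated delta cells also carried SST. Of 29 unclassified endocrine cells, which entered no comparison, 3 had over 1% of their counts on SST, with 27.6% at the highest, which lies within the range of annotated delta cells. The same held for 8 of 25 co-expressing cells (highest 10.01%), 2 of 437 alpha cells (highest 5.23%) and 1 of 164 beta cells (highest 6.46%). No gamma, ductal, acinar, PSC or rarer cell in the matrix passed 1%.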

How the results depend on the processing

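The 4 marker genes kept their direction in all alternatives, and of 155 gene differences examined 69 kept their call in every alternative, 86 lost it in at least 1 and 0 reversed. Leaving out donor 1 ended 50 calls, donor 2 48, donor 3 35, donor 4 45, donor 5 24 and donor 6 37. Counts of called genes moved by over 1.5 times in 43 cases and stayed within that in 81, and the cause was not tested. Against the endocrine mean, alpha, beta, gamma, ductal, acinar and all types, DESeq2 called 1049, 1230, 1199, 1135, 3970, 4200 and 2506 genes. Against the first 4 of these, 757, 922, 679 and 557 were called with no filter on low counts, and 554, 1000, 582 and 697 with limma on mean CPM per cell. A mean of at least 50 counts left 203 against the endocrine mean. Without the replicate block, which pairs sums by donor, alpha gave 336, beta 206 and gamma 104. With the compared types alone in the fit, beta gave 153, gamma 27, ductal 1163 and acinar 621. With at least 5 cells per sum gamma gave 332 and all types 573. Acinar and PSC cells had too few donors to enter that fit, so its mean of all types was a different contrast. Leaving out 1 donor at a time gave 149 to 298 (endocrine mean), 253 to 379 (alpha), 152 to 284 (beta), 53 to 145 (gamma), 1774 to 2429 (ductal), 1722 to 2300 (acinar) and 906 to 1250 (all types). In these fits a type could enter with fewer donors than in the main fit. The difference in genes per cell from beta cells was -48.3 when a gene needed at least 5 counts. A comparison of diabetic donors, acinar sums of at least 5 cells and a fit of all types limited to the types compared were not run. Depth limits donor 3 most.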

Other observations

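Over the means of the 8 cell types, the genes whose level was most like that of SST included BCHE (Pearson r = 0.997), LEPR (0.979), BBS1 (0.937) and ECEL1 (0.911), among genes whose mean level was 3 or more on the log2 CPM scale. These are descriptions over 8 points that share donors. SST is by far the highest in delta sums, at a mean of 299998 CPM, with sums of co-expressing cells next at 8972 CPM. A gene high in delta cells alone has a high r by that fact, and the values add no support to it.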
